A study of Homo sapiens with 6 samples.

Results

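The SWI/SNF (BAF) complex was described here through 10 of its subunit genes, ACTL6A, SMARCA4, SMARCA2, ARID1A, ARID1B, SMARCB1, SMARCC1, SMARCC2, SMARCD1 and SMARCE1, which were found by symbol among the 35474 genes of the deposited count table. All 10 were listed and all 10 passed the filter on low counts. RNA was sequenced from A549 cells, a human lung adenocarcinoma line, 48 h after transfection. In the siBAP18 group (n = 3 cultures) the siRNA targeted BAP18, listed as C17orf49, and in the siCtrl group (n = 3 cultures) it was nontargeting. All libraries come from this 1 cell line, no further treatment or allele is named for either group, and which of the study's BAP18 siRNAs the cultures received is not given in the sources used here. The study examined ACTL6A as a protein partner of BAP18. By Western blot in A549 cells, it reported ACTL6A protein to be largely unchanged after BAP18 knockdown or overexpression. The comparison of siBAP18 with siCtrl asks whether the mRNAs of ACTL6A and of the complexes it belongs to differed after BAP18 knockdown.

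SWI/SNF complexes use the energy of ATP to slide or evict nucleosomes and so open or close regulatory DNA. Each complex holds a single catalytic ATPase, SMARCA4 (BRG1) or SMARCA2 (BRM), and an actin module with ACTL6A (BAF53A) and ACTB. The core holds SMARCC and SMARCD proteins, joined in canonical BAF and PBAF by SMARCE1 and SMARCB1. ARID1A or ARID1B joins in canonical BAF, whereas PBRM1 and ARID2 mark PBAF and BRD9 marks non-canonical BAF. A549 cells are known to lack functional SMARCA4 protein because of a mutation in the gene, so its mRNA level does not give the level of working protein. ACTL6A is also a subunit of the TIP60/NuA4 acetyltransferase complex and of the INO80 remodeler.

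The libraries held 42094524 to 56548620 counts. C17orf49 counts were 743, 751 and 705 in siCtrl and 120, 137 and 108 in siBAP18, a fall of 2.65 on the log2 scale (standard error, SE, 0.11). Its adjusted p of 7.31e-16, like all adjusted p values below, was obtained with the quasi-likelihood test of edgeR, adjusted by the Benjamini-Hochberg method over the 20776 genes that passed the filter. Here "rose" and "fell" mean an adjusted p under 0.05. Of all genes tested, 49.6% passed this threshold, 24.5% higher and 25.1% lower, and 8.46% also had an absolute log2 fold change over 1. Epithelial KRT8 had 468428 to 724385 counts in a library, whereas 4 leukocyte markers (2 of them listed) reached at most 60 counts, 3 endothelial markers at most 45 and 5 fibroblast markers at most 611. Of the 5 epithelial markers 4 fell, and their summed counts were 880402 to 1071305 in siCtrl and 709990 to 874777 in siBAP18. Of 5 reductase and dehydrogenase markers of A549 cells 4 also fell, with sums of 757921 to 896788 counts in siCtrl and 437344 to 618655 in siBAP18. Of the endothelial markers 1 rose and 1 fell, of the fibroblast markers 1 fell, and mitochondrial genes took 6.86% to 7.43% of counts in siCtrl and 5.27% to 6.14% in siBAP18. In bulk RNA, fewer cells of a type and less RNA per cell cannot be told apart, and every level is relative to the library's total. Proliferation markers moved with the groups: 13 of 13 fell, MKI67 by 1.20 on the log2 scale, and the part of these markers and shares in the results below was not tested.

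Of the 10 SWI/SNF genes, 3 rose (SMARCA4, SMARCE1 and SMARCB1), 4 fell (SMARCD1, SMARCC2, SMARCC1 and ARID1B) and 3 did not pass the threshold (SMARCA2, ACTL6A and ARID1A). None had an absolute log2 fold change over 1, and SMARCA4 came closest. The 7 that passed were also the 7 whose siBAP18 and siCtrl libraries did not overlap in CPM (the count relative to the library total after TMM scaling), against 56.6% of all genes tested. The median log2 fold change of the 10 was −0.06, beside 0.0010 over all genes tested. All 10 were well expressed, and among the 5027 genes at or above the average log2 CPM of the lowest of them, SMARCD1, 68.0% passed the threshold, 37.0% higher and 31.0% lower. The share of members that passed was close to this background, so the description below turns on which subunits moved and which did not.

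**Figure D1:**
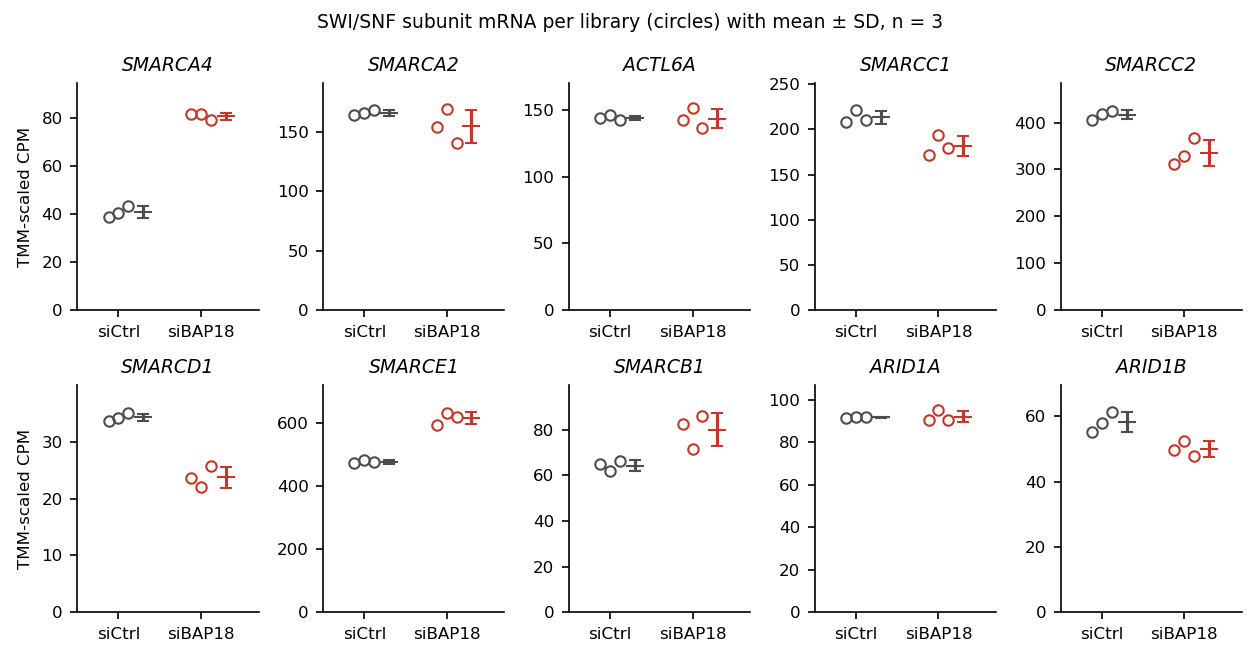
TMM-scaled CPM (vertical axes from 0) of the 10 SWI/SNF genes in the 3 siCtrl and 3 siBAP18 libraries. Circles are libraries and bars are the mean ± SD; SMARCA4 stood near 40.8 CPM in siCtrl and 80.9 in siBAP18, while the groups overlapped for SMARCA2, ACTL6A and ARID1A.

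The catalytic ATPases were SMARCA4, which rose, and SMARCA2, which did not pass the threshold. SMARCA4 (hg38, chr19:10961001-11065395, + strand) measured 38.6, 40.4 and 43.5 CPM in siCtrl replicates 1, 2 and 3 and 81.7, 81.8 and 79.1 CPM in siBAP18 replicates 1, 2 and 3. Every siBAP18 library lay above every siCtrl library, and each group was tight. Mean SMARCA4 expression was 40.8 ± 2.43 CPM (SD, n = 3) in siCtrl and 80.9 ± 1.49 (SD, n = 3) in siBAP18, a 1.98-fold rise (log2 fold change 0.99, SE 0.07, adjusted p = 1.14e-11). Its log2 fold change lay between 0.83 and 1.14 over all alternatives and remained past the threshold in each. No exon of another listed gene overlapped those of SMARCA4.

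SMARCA2 (hg38, chr9:1980290-2193624, + strand), the alternative ATPase, measured 163.9, 165.6 and 168.7 CPM in siCtrl and 153.6, 169.1 and 140.9 CPM in siBAP18. The siBAP18 libraries spread to both sides of the siCtrl libraries. The log2 fold change was −0.10 (95% interval −0.25 to 0.04, adjusted p = 0.232), so a fall of up to 0.25 on the log2 scale is within the interval. Without siBAP18 replicate 2 it was −0.17 with an adjusted p of 0.0209, so that library decides whether SMARCA2 passes. Without siBAP18 replicate 3 it was −0.04 and with the gene length trend removed 0.08, neither of which passed.

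Because both ATPases were counted in the same library, their ratio does not depend on the scaling between libraries. Counts per kilobase of SMARCA4 relative to SMARCA2 were 0.369, 0.382 and 0.403 in siCtrl and 0.831, 0.756 and 0.878 in siBAP18. SMARCA4 mRNA thus stayed below SMARCA2 mRNA per kilobase of listed exon length in every library, but by a smaller margin in siBAP18. The mean ratio was 0.384 ± 0.0172 (SD, n = 3) in siCtrl and 0.822 ± 0.0615 (SD, n = 3) in siBAP18, a difference of 1.09 in log2 ratio (two-sided exact permutation p = 0.1, adjusted p = 0.15 over 3 ratios). An exact p of 0.1 is the smallest that 3 against 3 libraries can give.

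RefSeq promoter windows (GRCh38.p14, 250 bases before to 50 after a start) were available for 7 of the 10 genes. For each ATPase gene 1 of its windows is shown. The ratio of these paralogs, which take the same place in the complex, did not overlap between the groups. The ARID1A to ARID1B ratio, given below, did not overlap either, and the windows of those genes are not shown. Capitals mark a match to the E2F word TTTGGCG. The first is SMARCA4 at chr19:10960780-10961079, the second SMARCA2 at chr9:2015097-2015396, both on the + strand.
SMARCA4: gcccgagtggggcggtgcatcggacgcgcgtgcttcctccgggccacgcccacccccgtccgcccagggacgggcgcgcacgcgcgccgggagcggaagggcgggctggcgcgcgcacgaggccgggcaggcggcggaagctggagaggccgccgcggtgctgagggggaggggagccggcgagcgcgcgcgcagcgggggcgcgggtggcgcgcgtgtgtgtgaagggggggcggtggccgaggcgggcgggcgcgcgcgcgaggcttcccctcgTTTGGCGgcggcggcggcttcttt
SMARCA2: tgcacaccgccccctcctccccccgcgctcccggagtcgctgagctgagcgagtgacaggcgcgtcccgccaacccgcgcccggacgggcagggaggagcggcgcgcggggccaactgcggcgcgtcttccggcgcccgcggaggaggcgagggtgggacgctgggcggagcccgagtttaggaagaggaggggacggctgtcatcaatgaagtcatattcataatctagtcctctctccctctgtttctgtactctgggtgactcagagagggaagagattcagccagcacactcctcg

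The SMARCA4 window was 81.3% G or C and the SMARCA2 window 66.7%, beside a median of 58.7% over 35116 promoter windows. The words CTTTGAT and CTTTGTT, which TCF/LEF factors (the DNA-binding partners of β-catenin) recognise, and the E2F words TTTGGCG and TTTCCCG were searched on both strands. None of the 12 windows of the 7 genes held either TCF/LEF word, which 7.61% of all windows held at least once. With so few windows and so small a share, the lack of a match says little. TTTGGCG was in the SMARCA4 window shown, beginning at position 277 of its 300 bases, and in 1.92% of all windows. TTTCCCG was in the window of another SMARCA2 start, chr9:2157412-2157711, and in 4.29% of all windows. These matches are a description of letters and not of binding.

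ACTL6A (hg38, chr3:179562880-179588408, + strand) showed no difference beyond the spread between libraries. It measured 144.0, 145.9 and 142.6 CPM in siCtrl and 142.4, 151.2 and 136.8 CPM in siBAP18. The siBAP18 libraries lay on both sides of the siCtrl libraries, and siBAP18 replicate 2 was the highest of all 6. Mean expression was 144.2 ± 1.66 CPM (SD, n = 3) in siCtrl and 143.5 ± 7.29 (SD, n = 3) in siBAP18, a log2 fold change of −0.0065 (95% interval −0.14 to 0.13, adjusted p = 0.944). The interval leaves room for a difference of up to about 0.14 on the log2 scale in either direction. Removing each library's trend with GC content, an alternative chosen after seeing the data, gave a log2 fold change of 0.20 and an adjusted p of 0.00204, so the result for ACTL6A depends on that step. ACTL6A shares 124 exon bases with MRPL47 and 96 with RP11-15L13.4, both on the opposite strand, and MRPL47 counts were 12.0% to 17.3% of those of ACTL6A.

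The other genes of the actin and ATPase module moved in both directions. ACTB, the actin subunit of the complex and also the abundant cytoskeletal actin, rose by a log2 fold change of 0.52 (adjusted p = 3.04e-06). Of the BCL7 proteins, small subunits bound to the ATPase, BCL7B rose from 29.4 ± 0.866 to 64.7 ± 6.64 CPM (SD, n = 3 each; log2 fold change 1.14, adjusted p = 6.16e-12) and BCL7A rose by 0.78 on the log2 scale (adjusted p = 4.37e-09). BCL7C rose less, with a log2 fold change of 0.23 and an adjusted p of 0.0191 that was lost in 5 of its alternatives, among them the removal of the GC trend (0.155) and leaving out siCtrl replicate 1 (0.0901), siCtrl replicate 2 (0.128) or siBAP18 replicate 3 (0.0539). SS18, best known from the fusion gene of synovial sarcoma, fell from 41.2 ± 0.528 to 24.7 ± 1.73 CPM (SD, n = 3 each; log2 fold change −0.73, adjusted p = 5.37e-09). Its paralog SS18L1 had a log2 fold change of −0.22 and an adjusted p of 0.111, which became 0.0187 once the GC trend was removed. ACTL6B, the neuronal counterpart of ACTL6A, had 0 to 4 counts in a library and was not tested.

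The core subunits split, with SMARCE1 and SMARCB1 higher and SMARCC1, SMARCC2 and SMARCD1 lower in siBAP18. SMARCD1 (BAF60A; hg38, chr12:50084972-50100712, + strand), which links the complex to transcription factors, had the largest fall of the 10. It measured 33.7, 34.1 and 35.0 CPM in siCtrl and 23.5, 22.0 and 25.6 CPM in siBAP18, with no overlap. Mean expression was 34.2 ± 0.661 CPM (SD, n = 3) in siCtrl and 23.7 ± 1.81 (SD, n = 3) in siBAP18 (log2 fold change −0.53, SE 0.07, adjusted p = 1.41e-06). Its paralogs SMARCD2 and SMARCD3 had log2 fold changes of 0.01 (adjusted p = 0.922) and 0.08 (adjusted p = 0.453).

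An siRNA guide can also pair through its bases 2 to 8 with sites in the 3′ UTRs of other mRNAs, so the principal GENCODE 29 transcripts were searched for the complement of those bases in each of the study's siRNAs. Among the members that fell or did not pass, the site of siBAP18#3 was in SMARCD1 and that of siBAP18#2 in SMARCC1 and SMARCA2. The sites are shown with 11 bases to each side and the 7 matching bases in capitals, at chr12:50100214-50100242 (+ strand), chr3:47585526-47585554 (− strand) and chr9:2192948-2192976 (+ strand).
SMARCD1: caggctcgcagACTCAACacagcaagggt
SMARCC1: cttgagggcagAAGATTCtgtgaaccttg
SMARCA2: aatgggcctcaAAGATTCagattgaaaca

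Both words were also in the 3′ UTR of SMARCB1, which rose, though past the end of the exons listed for it. Of 14040 tested genes with a 3′ UTR, 6.08% held the siBAP18#3 word, and 49.9% of these fell against 29.1% of the genes without it. For the siBAP18#2 word, 41.0% of the genes with it fell against 29.2% without, for siBAP18#1, which had no site in the 10 genes, 39.8% against 29%, and for siCtrl 25.1% against 30.5%. Genes with the siBAP18#3 word had longer 3′ UTRs, with a median of 3090 bases against 966, and for siBAP18#2 the medians were 3126 and 916. They were 2976 and 878 for siBAP18#1, and 2768 and 1013 for siCtrl. Among the other SWI/SNF subunits described below or above, ARID2, which fell, held the siBAP18#1 word. BCL7B, which rose, and BRD7, which did not pass, held the siBAP18#2 word. The part of these sites in the values of any of these genes was not tested.

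SMARCC2 (BAF170; hg38, chr12:56162983-56189567, − strand) and SMARCC1 (BAF155; hg38, chr3:47585272-47782106, − strand) are the scaffold around which the core assembles. SMARCC2 measured 405.9, 418.9 and 425.0 CPM in siCtrl and 310.8, 328.3 and 366.3 CPM in siBAP18. SMARCC1 measured 208.3, 221.8 and 209.9 CPM in siCtrl and 172.1, 194.0 and 179.4 CPM in siBAP18. For both genes every siBAP18 library lay below every siCtrl library. The log2 fold change was −0.31 for SMARCC2 (SE 0.07, adjusted p = 5.26e-04) and −0.23 for SMARCC1 (SE 0.07, adjusted p = 0.00602).

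SMARCC1 lay near the threshold. Its adjusted p became 0.0503 without siCtrl replicate 2, 0.0588 without siBAP18 replicate 1, 0.0708 with limma on log2(RPKM + 1) without a filter, and 0.123 (log2 fold change −0.12) once each library's trend with gene length was removed. SMARCC2 passed the threshold in all alternatives, with a log2 fold change of −0.18 (adjusted p = 0.0320) after the length trend was removed. SMARCC2 shares 514 exon bases with MYL6 on the opposite strand, whose counts were 466% to 515% of those of SMARCC2 in siCtrl and 843% to 973% in siBAP18. MYL6 itself rose (log2 fold change 0.59, adjusted p = 7.76e-07). Use of strand in counting is not given in the sources used here, and reads of this stretch cannot be assigned to a single gene. The ratio of SMARCC1 to SMARCC2 per kilobase, 0.573 ± 0.0200 (SD, n = 3) in siCtrl and 0.610 ± 0.0574 (SD, n = 3) in siBAP18, overlapped between the groups (two-sided exact permutation p = 0.5, adjusted p = 0.5).

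SMARCE1 (BAF57; hg38, chr17:40624962-40648508, − strand), an HMG-box DNA-binding subunit, measured 471.6, 483.3 and 476.0 CPM in siCtrl and 593.8, 632.1 and 618.0 CPM in siBAP18. The lowest siBAP18 library was above the highest siCtrl library by more than the range of either group. The log2 fold change was 0.37 (SE 0.06, adjusted p = 3.85e-05), and it was 0.61 once the GC trend was removed. SMARCE1 shares 974 exon bases on the same strand with the readthrough gene RP5-1028K7.3, whose counts were 96.4% to 97.1% of those of SMARCE1 in every library, so the level of SMARCE1 alone is uncertain. How many reads were counted for both genes was not tested.

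SMARCB1 (SNF5, the tumor suppressor lost in rhabdoid tumors; hg38, chr22:23786963-23834516, + strand) measured 64.9, 61.7 and 66.2 CPM in siCtrl and 82.6, 71.7 and 85.9 CPM in siBAP18. The groups did not overlap, and siBAP18 replicate 2 was the closest to siCtrl. The log2 fold change was 0.32 (SE 0.07, adjusted p = 7.65e-04), and it lay between 0.26 and 0.39 with each library left out.

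ARID1A and ARID1B are the large, mutually exclusive DNA-binding subunits of canonical BAF. ARID1A (hg38, chr1:26693236-26782104, + strand) measured 91.2, 91.9 and 91.6 CPM in siCtrl and 90.5, 95 and 90.6 CPM in siBAP18. These libraries overlapped, with a log2 fold change of 0.0072 (95% interval −0.13 to 0.14, adjusted p = 0.936). ARID1B (hg38, chr6:156777374-157210779, + strand) measured 55.4, 58.0 and 61.4 CPM in siCtrl and 49.8, 52.5 and 47.8 CPM in siBAP18.

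The highest siBAP18 library for ARID1B was below the lowest siCtrl library, and the log2 fold change was −0.22 (SE 0.07, adjusted p = 0.0108). This call was lost in 5 alternatives, namely without siCtrl replicate 3 (adjusted p = 0.0892), in the 3 limma fits on RPKM (adjusted p = 0.156 to 0.265) and with the gene length trend removed, where the log2 fold change was 0.014 (adjusted p = 0.873). That same step gave ARID1A a log2 fold change of 0.19 and an adjusted p of 0.0126. ARID1B is listed with 44058 exon bases, the longest of the 10, against 7962 in its principal GENCODE 29 transcript. The ratio of ARID1A to ARID1B per kilobase was 4.56, 4.39 and 4.13 in siCtrl and 5.03, 5.00 and 5.25 in siBAP18. The groups did not overlap, and the difference was 0.23 in log2 ratio (two-sided exact permutation p = 0.1, adjusted p = 0.15). The lengths used set the level of this ratio but not that difference. Per kilobase of principal transcript, siCtrl means were 10.7 CPM for ARID1A and 7.32 CPM for ARID1B.

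**Figure D2:**
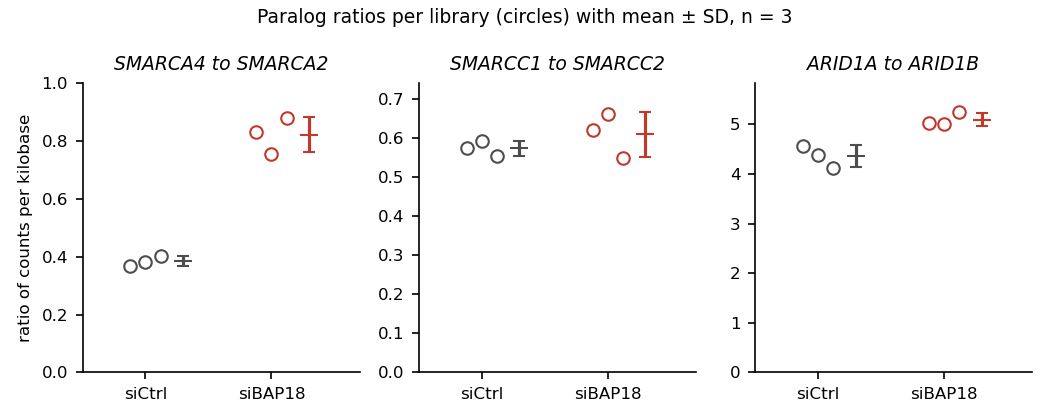
Ratio of counts per kilobase of listed exon length (vertical axes from 0) for 3 paralog pairs in each library, with the mean ± SD of 3 libraries. The SMARCA4 to SMARCA2 ratio was 0.384 in siCtrl and 0.822 in siBAP18, the ARID1A to ARID1B groups did not overlap, and the SMARCC1 to SMARCC2 groups did.

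Levels were compared between genes as RPKM, the count per kilobase of listed exon length relative to the library total. In siCtrl the order was SMARCC2 (48.6 ± 1.36 RPKM), SMARCE1 (43.2 ± 0.987), ACTL6A (39.2 ± 0.847), SMARCC1 (27.9 ± 1.27), SMARCB1 (25.9 ± 0.678), SMARCA2 (9.58 ± 0.164), SMARCD1 (6.65 ± 0.138), ARID1A (5.74 ± 0.0829), SMARCA4 (3.68 ± 0.218) and ARID1B (1.32 ± 0.0694; SD, n = 3 each). No neighbors in this order overlapped between libraries. In siBAP18, SMARCE1 came first at 55.8 ± 2.94 RPKM, SMARCC2 (39.2 ± 2.35) and ACTL6A (39.1 ± 3.33) overlapped, and SMARCA4 stood in place 7 at 7.32 ± 0.387 RPKM, above ARID1A and SMARCD1. Listed lengths are unions of all listed exons, and with the length of the principal transcript instead, 6 of the 10 siCtrl places changed. SMARCB1 is listed with 2481 bases, fewer than the 5210 of its principal transcript, so its place by principal length is uncertain. On that scale SMARCA4 and ARID1B were the lowest of the 10 in siCtrl and overlapped, at 7.05 ± 0.420 and 7.32 ± 0.381 CPM per kilobase (SD, n = 3 each).

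Of 19 other SWI/SNF subunit genes, 18 were tested, 8 rose, 3 fell and 7 did not pass, against 24.5% higher and 25.1% lower over all genes tested. At the expression of the SWI/SNF members or above, 37.0% rose and 31.0% fell, though some of the 18 lay below that level. Their median log2 fold change was 0.12. Beside the actin module above, both genes that define PBAF, its chromatin-binding subunit PBRM1 (−0.66, adjusted p = 1.57e-07) and its ARID subunit ARID2 (−0.89, adjusted p = 3.20e-09), fell in log2 expression, whereas the PBAF subunits BRD7 (0.02, adjusted p = 0.781) and PHF10 (0.11, adjusted p = 0.282) did not pass. PBRM1 measured 25.9, 26.3 and 25.3 CPM in siCtrl and 15.4, 18.1 and 15.2 CPM in siBAP18. ARID2 measured 20.6, 23.0 and 21.8 CPM in siCtrl and 12.2, 12.4 and 10.4 CPM in siBAP18. Neither overlapped between groups. The log2 fold change of ARID2 was −0.57 with the GC trend removed and −0.51 with limma on log2(RPKM + 1). The added 1 shrinks the latter, since the mean of ARID2 was 1.794 RPKM in siCtrl and 0.9657 in siBAP18. PHF10 passed with the GC trend removed (0.40, adjusted p = 1.71e-05) and without siBAP18 replicate 3 (0.19, adjusted p = 0.0135). BRD7 passed with the length trend removed (0.15, adjusted p = 0.0434). PBRM1 shares 146 exon bases with SMIM4, which is on the opposite strand and had 24.9% to 28.6% of its counts in siCtrl and 46.0% to 63.9% in siBAP18.

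The genes grouped here under non-canonical BAF alone, BRD9, GLTSCR1 and GLTSCR1L, were higher or did not pass. Subunits shared between assemblies, some of which fell, are described above. BRD9, a bromodomain protein, rose by 0.34 on the log2 scale (adjusted p = 2.28e-04). GLTSCR1 (BICRA) rose from 3.61 ± 0.239 to 6.75 ± 0.358 CPM (SD, n = 3 each; log2 fold change 0.90, adjusted p = 5.02e-07), though by only 0.36 with limma on log2(RPKM + 1), and its paralog GLTSCR1L (BICRAL), on the same scale, was at −0.06 (adjusted p = 0.655). BRD9 shares 222 exon bases on the same strand with ZDHHC11, which rose (0.32, adjusted p = 0.00135), and 182 on the opposite strand with TRIP13, which fell (−0.73, adjusted p = 9.47e-09). TRIP13 counts were 62.5% to 70.3% of those of BRD9 in siCtrl and 27.5% to 33.5% in siBAP18. Among the PHD-finger subunits of canonical BAF, DPF2 rose (0.55, adjusted p = 5.50e-07) and DPF1 did not pass (0.14, adjusted p = 0.427). DPF3 had only 2, 10 and 2 counts in siCtrl and 16, 30 and 14 in siBAP18. Its log2 fold change of 1.98 (adjusted p = 0.00411) became 3.19 without siCtrl replicate 2 and was lost with limma on log2(RPKM + 1) without a filter (adjusted p = 0.09997), so its size is poorly fixed.

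**Figure D3:**
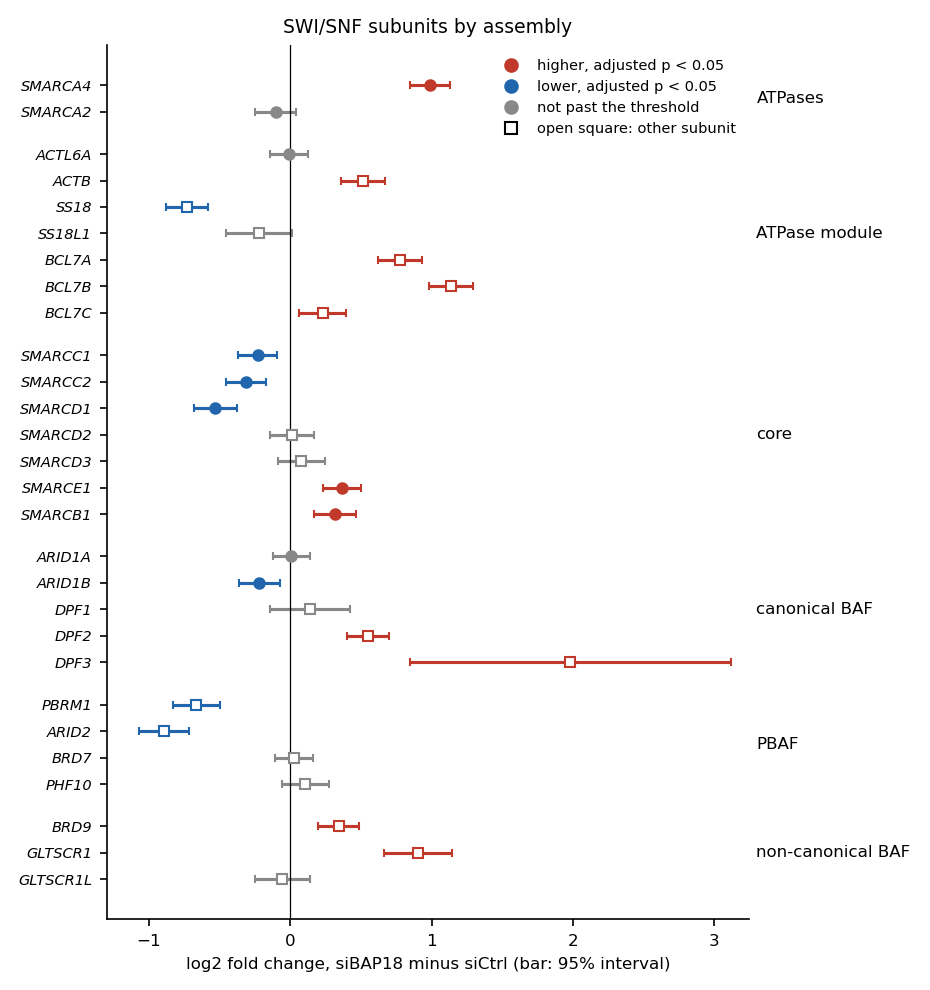
Log2 fold change (siBAP18 minus siCtrl, horizontal axis, with 95% intervals) of the 10 SWI/SNF genes (filled circles) and 18 other tested subunits (open squares), arranged by assembly. DPF3 at 1.98, from few counts, lies farthest to the right, followed by BCL7B at 1.14 and SMARCA4 at 0.99, with ARID2 at −0.89, SS18 at −0.73 and PBRM1 at −0.66 far to the left and ACTL6A near 0.

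The other complexes that hold ACTL6A gave 10 genes that rose and 3 that fell of 29 tested. Over all genes tested, 24.5% rose and 25.1% fell, and at the expression of the SWI/SNF members or above, 37.0% rose and 31.0% fell. The share of the 29 that rose was near this background, and the share that fell was below it. Some of the 29 lay below the expression of the SWI/SNF members. In TIP60/NuA4, 6 of 15 rose and 1 fell. KAT5, the catalytic acetyltransferase, measured 1891, 1742 and 1684 counts in siCtrl and 3425, 3156 and 2620 in siBAP18 (log2 fold change 0.74, adjusted p = 8.51e-09). MEAF6 (0.57, adjusted p = 3.60e-07) and the scaffold subunit EPC1 (0.66, adjusted p = 3.65e-07) also rose in log2 expression, EPC1 by 0.42 with limma on log2(RPKM + 1). The added 1 shrinks that value, since the mean of EPC1 was 1.365 RPKM in siCtrl and 2.164 in siBAP18. MBTD1 fell (−0.30, adjusted p = 0.00466), but its value was 0.017 (adjusted p = 0.884) with the GC trend removed, and its call was lost with limma on log2(RPKM + 1) without a filter (adjusted p = 0.0550).

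In INO80, 3 of 12 rose, close to the 24.5% of all genes, and 1 fell. The ATPase INO80 itself measured 2329, 2262 and 2109 counts in siCtrl and 4483, 5042 and 3112 in siBAP18 (log2 fold change 0.84, adjusted p = 3.54e-10). TFPT (0.84, adjusted p = 1.95e-10) and MCRS1 (0.36, adjusted p = 2.75e-04) rose too. UCHL5, a deubiquitinase, fell (−0.26, adjusted p = 0.00278), but was at 0.091 (adjusted p = 0.197) with the GC trend removed. The paired ATPases that TIP60 and INO80 share went apart, with RUVBL2 higher (0.52, adjusted p = 2.39e-06) and RUVBL1 lower (−0.23, adjusted p = 0.00481, or 0.0788 with the length trend removed).

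**Figure D4:**
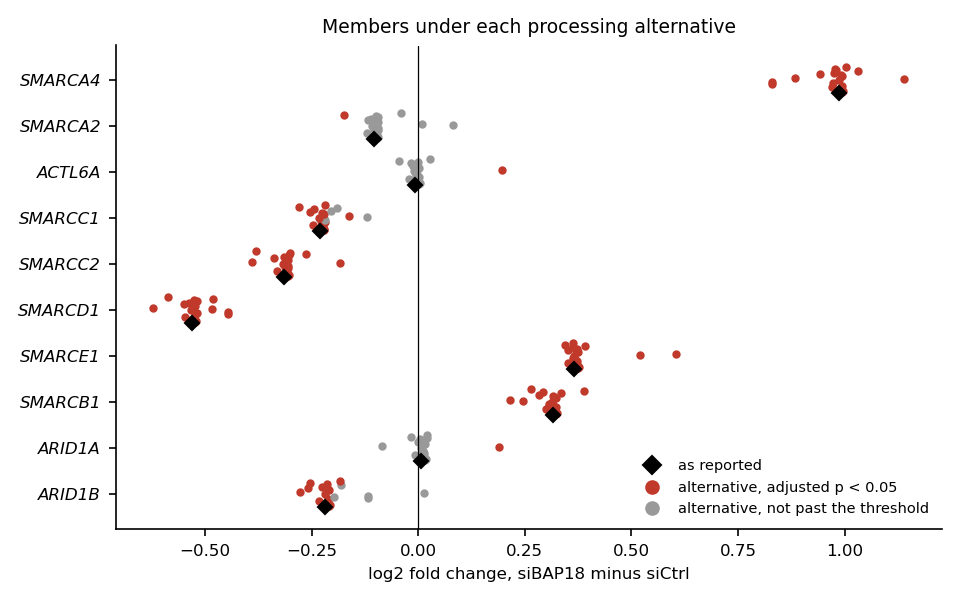
Log2 fold change (siBAP18 minus siCtrl, horizontal axis) of each of the 10 SWI/SNF genes as reported (diamonds) and under each processing alternative (circles, red where the adjusted p was under 0.05). SMARCA4, SMARCE1, SMARCB1, SMARCC2 and SMARCD1 stay red throughout, whereas SMARCC1 and ARID1B have gray circles and ACTL6A has a single red circle at 0.20.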

How the data were processed

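Poly(A) RNA of 3 siCtrl and 3 siBAP18 A549 cultures, described in the labels as biological replicates, was sequenced as strand-specific paired reads. The authors deposited whole-number counts per gene without normalization and RPKM values, which equal the count per kilobase of listed length relative to the library's total. The labels name hg38 (and GRCm38); aligner, counter and use of strand are not given in the sources used here. Of deposited counts from 1 to 10, 77.4% were even, so both reads of a pair appear to be counted. No per-sample column was left unused (0), and a gene at 0 could account for up to 3 counts, for counting error only.

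Counts passing filterByExpr were scaled by TMM and tested by edgeR 4.0.16 (R 4.3.3) with the quasi-likelihood test and Benjamini-Hochberg adjustment; the steps were tested on simulated data. SEs were derived from each log2 fold change and its F statistic. By symbol or location, 35178 of 35474 genes matched GENCODE 29. Ratios were tested by exact permutation. Members and lists were chosen with earlier results of these data known. Named were all members, the other subunits, up to 3 called genes with the smallest adjusted p per direction in each TIP60/NuA4, INO80 and RUVBL list, C17orf49 and MKI67. Alternatives were other scalings, DESeq2 1.42.0, filters, limma 3.58.1 on log2(RPKM + 1) or log2(RPKM + 0.1), a replicate block, a gene length trend and each library left out. GC content, protein-coding genes only, halved counts and principal transcript lengths were added after seeing the data. Python 3.11.15, pandas 2.3.3 and matplotlib 3.10.9 made tables and plots.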

Additional observations from a re-analysis of the deposited data

How the results depend on the processing

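The number of SWI/SNF members called lower, 4, was 2 with limma on log2(RPKM + 1) without a filter and 2 with the gene length trend removed, and 3 to 5 with each library left out. Members called higher were 3 or 4 in all alternatives. Among log2 fold changes past the threshold as reported or in the alternative, those that changed sign were ACTL6A (0.20, GC trend removed), ARID1B (0.014, length trend removed), and MBTD1 (0.017) and UCHL5 (0.091), both with the GC trend removed. The cause was not tested. Leaving each library out gave 3 to 5 TIP60/NuA4 and INO80 genes called lower, with 5 without siBAP18 replicate 2. The replicate numbers did not pair the libraries (residual r of −0.017, 0.051 and 0.0038), and the replicate block changed only that count among the list counts by over 1.5 times, to 5. Lengths of principal transcripts moved 6 places in the siCtrl order. Depth limits DPF3, at 2 to 30 counts in a library, and ACTL6B, at 0 to 4, was not tested.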
